A study of Mus musculus with 15 samples.

Results

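The comparison described here is hypoxia-ischemia (HI) against sham surgery in wild-type (WT) mice, in cells positive for PDGFRβ isolated from the brain. Its members were taken by their sample labels, but members and gene lists were chosen with earlier results of these data known. The members were 4 libraries from WT mice 24 h after neonatal HI (HI 1, 2, 4 and 5) and 3 from WT sham mice (sham 1, 2 and 3), 7 of the 15 libraries in the series. The study asked how microRNA-210 bears on pericyte dysfunction after neonatal hypoxic-ischemic brain injury, and the other 8 libraries came from microRNA-210 knockout mice. Both groups carried the WT genotype, and no transgene, drug or Cre driver is named in the labels. Strain, sex, age, brain region, the way cells were isolated, any pooling of animals and any batch are not given in the sources used here. Replicates are numbered in the labels, with nothing on whether they came from separate animals, so the p-values measure the spread between these samples, which may be technical.

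PDGFRβ is the receptor through which platelet-derived growth factor from endothelium recruits and keeps pericytes, the mural cells that share the basement membrane of brain capillaries. Smooth muscle cells of larger vessels and perivascular fibroblasts carry it too. Pericytes regulate capillary flow and the blood-brain barrier, and in injured brain they are known to release chemokines and acute-phase proteins, to leave the vessel wall and to lay down matrix.

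Values are expected counts per gene from the deposited table, given as CPM, counts scaled to a common normalized library size. Each HI library held 17277858 to 17865973 counts and each sham library 17539499 to 17911824. Of 17892 genes with values, 14253 passed the filter on low counts and were tested with edgeR's quasi-likelihood test over these 7 libraries alone. A call required a p below 0.05 after adjustment over all genes tested (Benjamini-Hochberg). After HI, 2443 genes were called, 17.1% of those tested: 1298 were higher (9.11%) and 1145 lower (8.03%). The CPM ranges of the groups did not overlap for 32.5% of all tested genes and for 2421 of the 2443 called. The median log2 fold change over all tested genes was -0.01.

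The increases were larger than the decreases. At least a 4-fold change was called for 161 higher and 53 lower genes, and at least a 16-fold change for 34 higher genes and 1 lower gene. Whichever single library was left out, 854 genes kept their call, 491 higher and 363 lower. Every called gene named below kept its call in that sense unless its paragraph says otherwise. Cp, Saa1, Saa2, Il1rn, Osmr, Tnf, Mmp12, Mmp13, Adamts4 and Vegfa are named outside the rule for named genes, after their values were seen.

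**Figure D1:**
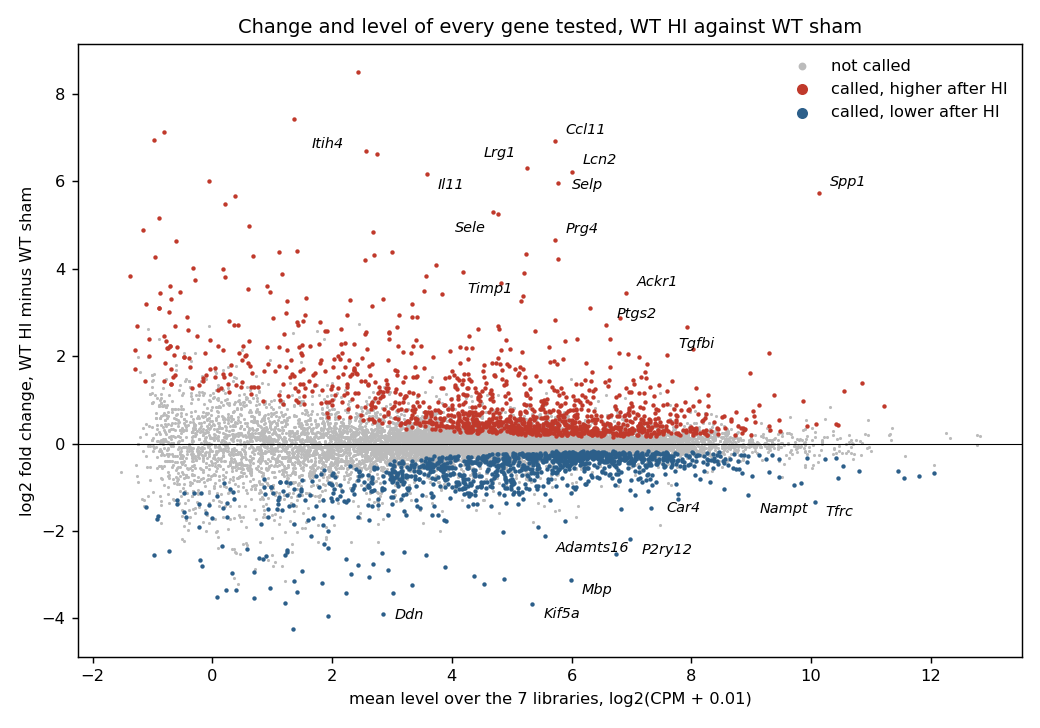
Log2 fold change of WT HI over WT sham (vertical axis) against the mean level over the 7 libraries (horizontal axis, log2(CPM + 0.01)) for the 14253 genes tested. Called genes are red (1298 higher after HI) or blue (1145 lower), the rest grey, and the largest increases exceed the largest decreases at the same level.

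In the label check, Pdgfrb had 1053, 756, 962 and 943 CPM in HI libraries 1, 2, 4 and 5, against 989, 694 and 911 CPM in sham libraries 1, 2 and 3, and was not called (log2 fold change 0.10 ± 0.15 (SE), adjusted p = 0.676). The level of a marker list is given as the mean of log2(CPM + 1) over its genes. For the 20 pericyte markers it was 6.93 to 7.42 in HI libraries and 7.07 to 7.64 in sham libraries. Endothelial markers, which should be absent from purified pericytes, were present at 9.15 to 9.49 after HI and 9.24 to 9.44 in sham. Microglia markers stood at 6.31 to 7.71 after HI and 7.02 to 7.48 in sham. RNA of endothelial cells and microglia was thus present in every library, and in such bulk RNA fewer cells of a type and less RNA per cell cannot be told apart.

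HI 2 stood apart from the other HI libraries. The chi-square per degree of freedom between replicate counts was 37.4 to 48.4 for pairs with HI 2, against 11.5 to 24.1 for the other HI pairs, and at most 24.8 for the sham pairs. HI 2 also had the highest microglia level (7.71, against 6.31 to 6.45 in the other HI libraries) and the lowest levels of the pericyte, smooth muscle and fibroblast lists in its group. Sham 2 did not stand apart by this measure, but had the highest levels of oligodendrocyte markers (4.43), neuron markers (2.99) and astrocyte markers (6.52) of the 7 libraries. Choroid plexus markers were uneven in both groups, at 3.15 to 6.66 after HI and 4.45 to 7.12 in sham. Without HI 2, 3000 genes were called, without sham 1, sham 2 and sham 3 in turn 1319, 1232 and 1150, and without HI 2 and sham 2 both, 2253 genes were called, 1221 higher and 1032 lower. The part these markers play in the results was not tested. Results without HI 2 and sham 2 do not test it, because the libraries left still differ in these markers. The oligodendrocyte level was 1.51, 1.32 and 1.43 in HI 1, 4 and 5, against 2.29 and 2.93 in sham 1 and 3.

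**Figure D2:**
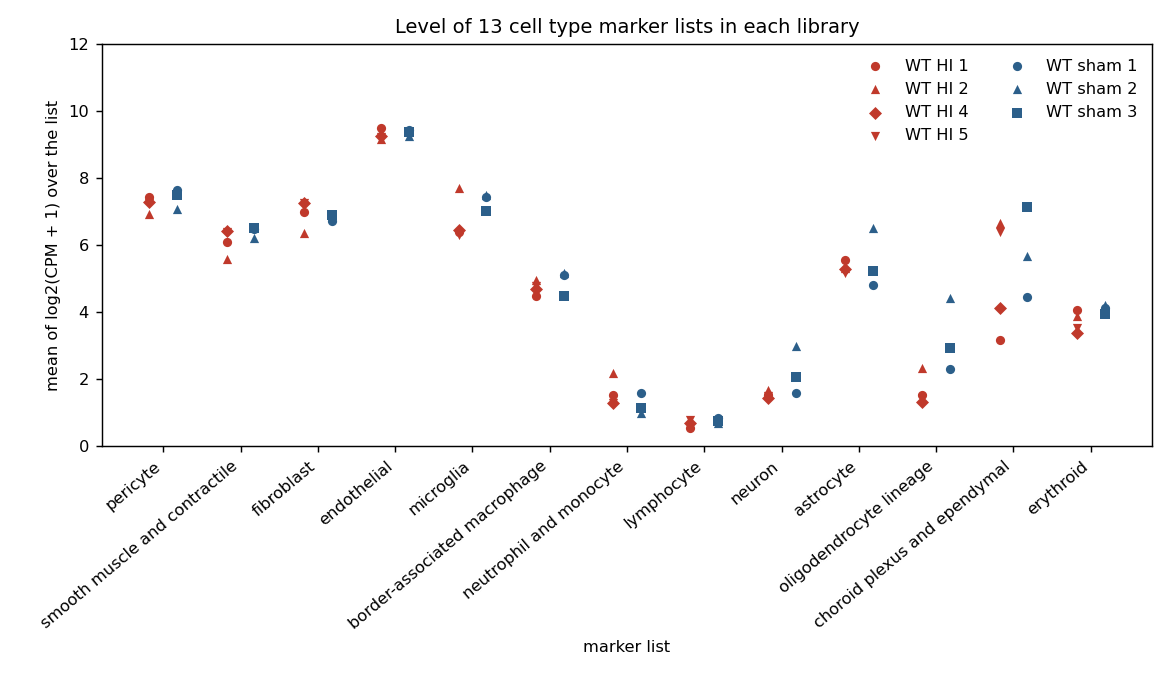
Mean of log2(CPM + 1) over each of 13 cell type marker lists (vertical axis), 1 symbol per library, WT HI in red to the left of WT sham in blue. HI 2 sits apart on microglia markers at 7.71, and sham 2 has the highest neuron (2.99) and oligodendrocyte (4.43) levels.

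Among called genes whose groups did not overlap and that averaged at least 10 CPM after HI, the 15 largest increases by fold were those of Ccl11, Itih4, Saa3, Lrg1, Lcn2, Il11, Selp, Spp1, Serpina3n, Sele, Acat3, Prg4, Lilr4b, Itih3 and Cdhr1, with log2 fold changes of 6.92 down to 4.32. All 15 kept their call under every setting other than the replicate block. The sequences shown here are promoter stretches of those of the 15 that hold a letter match to the sites of NF-κB or STAT factors, the transcription factors that inflammatory cytokines are known to activate. Of the 15 genes, 12 were matched to RefSeq promoters (GRCm38.p6, an older build than the authors' mm39), each spanning 250 bases before to 50 bases after the gene's start. The search used 4 motifs, each on both strands: the κB decamer (NF-κB type), TTCNNNGAA (STAT type), TGANTCA (AP-1 type) and ACGTG (the hypoxia response core). They occur in 0.411%, 8.3%, 7.81% and 19.6% of 32851 promoters of that length, in that order. Counted per gene, as the 12 are, they occur in 0.556%, 8.31%, 6.37% and 28.2% of the 11336 tested genes with a promoter. Among the 12 genes, 1 held the first, 3 the second, 3 the third (Il11, Selp and Sele) and 1 the last (Lrg1). Of the 15 largest decreases, described further on, 6 were matched to promoters, of which 1 held the STAT type and none the κB decamer. Each stretch runs 5′ to 3′ on the gene's strand, with the match in capitals.
Itih4, chr14:30886415-30886444, plus strand, match 51 bases before the start: aaacctgcatTTCCGAGAActtgcaccagc
Sele, chr1:164048084-164048113, plus strand, match 140 bases before the start: tcagtggataTTCCCAGAAaactttttgga
Lilr4b, chr10:51480498-51480527, plus strand, match 104 bases before the start: gatgtggcttTTCTCTGAAggaacttgaga
Cdhr1, chr14:37098566-37098595, minus strand, match 238 bases before the start: aaacaaatcaGGAAAATCCCtgcgcagcct
The first 3 are STAT-type matches, and the Cdhr1 match is the NF-κB type read on the opposite strand. A letter match is a description and not a site. The shares over called genes as a whole are not read here, since 78.0% of those called higher or lower, and 79.5% of all tested genes, had a promoter in the table.

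Acute-phase genes had the largest share of called members among the 43 gene lists. Of 16 tested members 15 rose and 1 was not called, with a median log2 fold change of 3.77 against -0.01 over all tested genes. Of the 15, 12 kept their call with any library left out, and Cp, Saa1 and Saa2 lost it without sham 1, sham 2 or sham 3 (adjusted p = 0.0517 to 0.0786). Lcn2 (Gene ID 16819), which binds bacterial siderophores and so withholds iron, had 123, 113, 99.9 and 110 CPM in HI libraries 1, 2, 4 and 5, against 2.12, 1.01 and 1.33 CPM in sham libraries 1, 2 and 3. The HI values lay within a narrow band, far above every sham value, for a log2 fold change of 6.22 ± 0.20 (SE, adjusted p = 1.19e-05). Lrg1 (Gene ID 76905), a secreted modulator of endothelial TGF-β signalling, had 59.3, 52.7, 74.4 and 77.2 CPM after HI and 0.688, 0.901 and 0.89 CPM in sham.

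Members of the inter-alpha-trypsin inhibitor family, some of whose heavy chains are carried by hyaluronan in inflamed matrix, rose as well. Itih4 (Gene ID 16427) had 7.17, 10.5, 10.8 and 12.9 CPM in HI libraries and 0.0573, 0.169 and 0.0556 CPM in sham libraries, where it rested on 1, 3 and 1 counts. Itih3 (Gene ID 16426) had 65.2, 27.5, 88.9 and 74.4 CPM after HI, lowest in HI 2, against 2.29, 4.96 and 2.22 CPM in sham. Serum amyloid Saa3 (Gene ID 20210) had 15.4, 10.4, 12.8 and 8.24 CPM after HI and no more than 0.225 CPM in any sham library. Serpina3n, an inhibitor of serine proteases, had 60.5, 55.7, 31.5 and 29.4 CPM after HI, against 0.401, 2.03 and 0.945 CPM in sham (log2 fold change 5.29 ± 0.51, adjusted p = 0.00117). Il1rn, the antagonist of the interleukin-1 receptor, had 4.98 to 16.6 CPM after HI and 0.445 to 0.62 CPM in sham. Saa1, Saa2 and Saa3, and likewise the Serpina3 genes, are close copies between which reads may have been divided, so the split within each family is uncertain.

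The selectins Selp and Sele, which slow rolling leukocytes on activated endothelium, rose by over 5 on the log2 scale. Selp (Gene ID 20344) had 81.4, 76.5, 105 and 115 CPM after HI, against 1.2, 2.14 and 1.22 CPM in sham (log2 fold change 5.95 ± 0.26, adjusted p = 3.83e-05). Sele (Gene ID 20339) had 54.4, 37.4, 48 and 48.4 CPM after HI and 1.66, 1.01 and 1.06 CPM in sham (5.24 ± 0.21, adjusted p = 3.08e-05). Icam1, the integrin ligand for firm adhesion, had 352, 301, 229 and 215 CPM in HI libraries and 188, 153 and 144 CPM in sham libraries; its call was lost without sham 2 (log2 fold change 0.72, adjusted p = 0.0967) or sham 3 (0.70, adjusted p = 0.0972). In all, 3 of 15 tested adhesion genes rose and 2 fell, Vcam1 and Jam2, with a median of -0.13. The share called was 33.3%, against 17.1% of all tested genes. Neither Vcam1 nor Jam2 was called without sham 1, sham 2, sham 3 or HI 1, and Vcam1 was also not called without HI 2. The endothelial genes Pecam1, at 695 to 957 CPM after HI and 618 to 765 CPM in sham, and Cd34, at 336 to 421 CPM and 419 to 591 CPM, were not called.

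**Figure D3:**
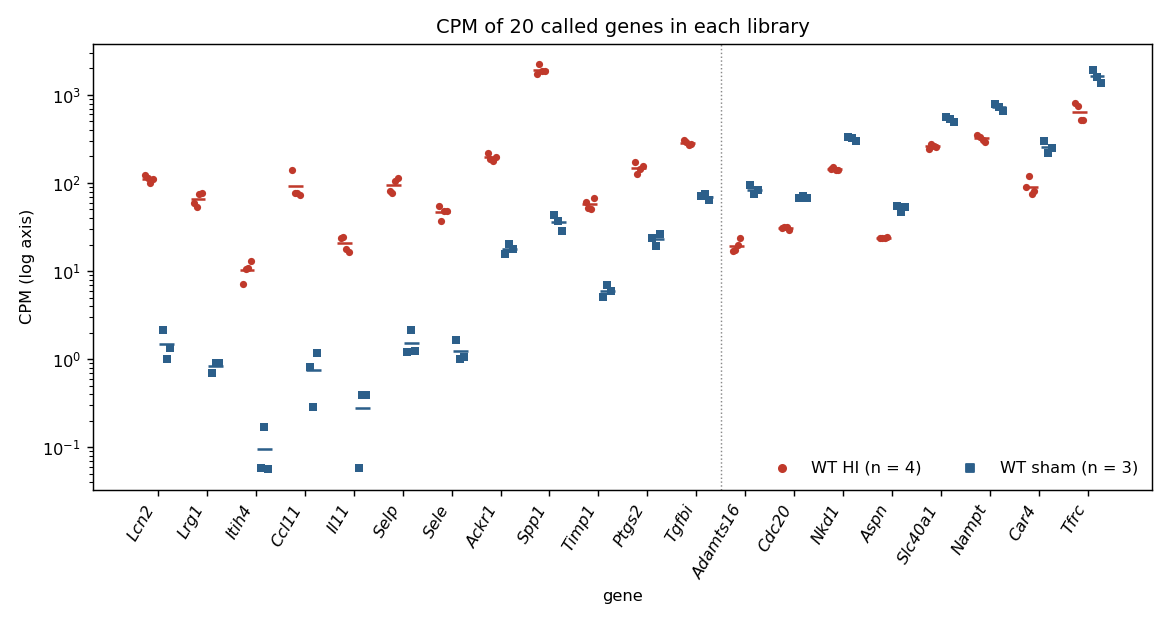
CPM on a log axis in each library for 20 called genes, WT HI (red circles, n = 4) left of WT sham (blue squares, n = 3), with a bar at each group's mean. The 12 genes left of the dotted line rose after HI and the 8 to its right fell, and no gene shown has overlapping groups.

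Of 21 tested chemokines and atypical receptors 11 rose and 1 fell, with a median log2 fold change of 1.45, and 8 of the 11 kept their call with any library left out. Ccl11 (Gene ID 20292), an attractant of eosinophils, had 140, 76.3, 77.4 and 72.8 CPM after HI, against 0.803, 0.282 and 1.17 CPM in sham (6.92 ± 0.44, adjusted p = 0.000191). HI 1 was the highest, and all HI libraries lay far above sham. Ccl2, the main monocyte attractant, had 123, 139, 105 and 89.3 CPM after HI and 45.9, 39.2 and 25.2 CPM in sham (1.63 ± 0.23, adjusted p = 0.00484). Ccl5 had 2.5 to 2.87 CPM after HI and 0.111 to 0.169 CPM in sham. Ccl4 and Ccl6 peaked in HI 2, the library with the highest microglia level: Ccl4 had 83, 158, 47.4 and 45.2 CPM after HI and 14.9, 10.8 and 9.62 CPM in sham.

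Atypical chemokine receptors bind chemokines without signalling as other receptors do, and of these Ackr1 rose, Ackr3 fell and Ackr4 was not called (log2 fold change -0.40 ± 0.20, adjusted p = 0.201). Ackr1 (Gene ID 13349), the receptor of venular endothelium that carries chemokines across the vessel wall, had 221, 186, 177 and 198 CPM after HI, against 15.8, 20.4 and 17.7 CPM in sham (3.44 ± 0.12, adjusted p = 1.19e-05). Ackr3, a scavenger of Cxcl12, fell to 117, 95.4, 103 and 116 CPM after HI, against 170, 156 and 175 CPM in sham (-0.63 ± 0.09, adjusted p = 0.00449). Cxcl12 itself, constitutive in pericytes and arteries, had 454 to 705 CPM after HI and 624 to 749 CPM in sham and was not called.

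Cytokines of the Il6 family and their receptors rose. Il11 (Gene ID 16156) had 24, 24.3, 18 and 16.4 CPM after HI, against 0.0573, 0.394 and 0.389 CPM in sham (6.16 ± 0.38, adjusted p = 0.000184). Il6 had 22.9, 10.2, 6.67 and 6.87 CPM after HI and 1.26, 1.35 and 0.89 CPM in sham, and Lif 6.28 to 10.7 CPM and 1.86 to 2.5 CPM. Their values did not overlap between the groups, with Il6 highest in HI 1. Osmr, the oncostatin M receptor, had 141 to 204 CPM after HI and 86.1 to 111 CPM in sham (0.83 ± 0.13, adjusted p = 0.00792).

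Among receptors, Il1r1, which binds interleukin-1, had 195, 155, 191 and 189 CPM after HI, against 85.9, 82.5 and 78.7 CPM in sham (1.15 ± 0.09, adjusted p = 0.000482). Il4ra, a chain of the interleukin-4 receptor, had 182 to 230 CPM after HI and 63.6 to 77.9 CPM in sham (1.51 ± 0.11, adjusted p = 0.000296). Tnfrsf1a, Tnfrsf1b and Tnfrsf12a, of the tumour necrosis factor receptor family, rose by 0.80 ± 0.09, 0.97 ± 0.14 and 1.42 ± 0.21 on the log2 scale. Tnf, the main macrophage cytokine of that receptor family, had 208, 330, 98.1 and 80 CPM after HI and 33.1, 22.2 and 17.8 CPM in sham, a wide range topped by HI 2. Its log2 fold change was 2.88 ± 0.55 (adjusted p = 0.0138), and its call was lost without sham 2 (adjusted p = 0.0517) or sham 3 (adjusted p = 0.0563). Over the list of cytokines and receptors 18 of 38 tested members rose and 1 fell, with a median of 0.60. The count of members that rose was 10 without sham 2, 10 without sham 3 and 12 without sham 1.

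Genes of the NF-κB and STAT3 pathways, which carry those cytokine signals to the nucleus, rose in 12 of 26 tested members and fell in none, with a median of 0.55. Stat3 had 339, 273, 291 and 284 CPM after HI, against 186, 165 and 176 CPM in sham (0.76 ± 0.09, adjusted p = 0.0025). Its feedback inhibitor Socs3 had 400, 342, 273 and 277 CPM after HI and 186, 170 and 179 CPM in sham (0.86 ± 0.14, adjusted p = 0.00804). Bcl3, a nuclear partner of NF-κB subunits, had 40.6 to 48.7 CPM after HI and 10.4 to 15 CPM in sham (1.81 ± 0.13, adjusted p = 0.00037). Tnfaip2 (1.56 ± 0.09), Cebpd (1.21 ± 0.20), Relb (0.72 ± 0.12) and Nfkb2 (0.64 ± 0.08) also rose. The fast-acting inhibitors were not called: Nfkbia had 447, 489, 244 and 259 CPM after HI and 236, 233 and 199 CPM in sham, and Tnfaip3 had 139 to 433 CPM and 109 to 174 CPM. Both were higher in HI 1 and HI 2 than in HI 4 and HI 5.

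In the prostaglandin pathway, 4 of 18 tested genes rose and 2 fell, with a median of 0.35. Ptgs2 (Gene ID 19225), the inducible cyclooxygenase, had 171, 127, 146 and 155 CPM after HI, against 23.8, 19.1 and 26 CPM in sham (2.71 ± 0.14, adjusted p = 7.25e-05). Pla2g4a, which frees the arachidonic acid that Ptgs2 uses, had 37.9 to 50.9 CPM after HI and 24.2 to 26.2 CPM in sham (0.88 ± 0.11). The transporter Slco2a1, which takes prostaglandins up from the extracellular space, had 135 to 216 CPM after HI and 62.3 to 66.6 CPM in sham (1.46 ± 0.15). Ptger4, a receptor of prostaglandin E, rose by 1.33 ± 0.23. Those that fell were Ptgis (-0.49) and Hpgd (-1.26), whose calls were lost without sham 1, 2 or 3 or HI 1, and for Hpgd also without HI 4 or HI 5, at log2 fold changes of -0.52 to -0.43 and -1.36 to -1.08. Without HI 2 the number that rose was 8.

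Matrix proteases and their inhibitors rose in 14 of 25 tested members and fell in 2, with a median of 0.56, and 10 of the 14 kept their call with any library left out. Timp1 (Gene ID 21857), the inducible inhibitor of matrix metalloproteinases, had 61.4, 51.6, 51.1 and 67.4 CPM after HI, against 5.1, 6.98 and 5.89 CPM in sham (3.27 ± 0.15, adjusted p = 5.64e-05). The stromelysin Mmp3 had 124, 208, 111 and 215 counts in HI libraries and 1, 0 and 0 counts in sham libraries, a level too low in sham for a fold change. The collagenase Mmp13 and the macrophage elastase Mmp12, each under 9 CPM in every library, rose by 4.37 ± 0.82 and 4.40 ± 0.67. Adamts4, a protease of aggregating proteoglycans, had 179, 108, 113 and 112 CPM after HI and 52, 43.9 and 48.9 CPM in sham (1.41 ± 0.19). Adamts16 moved the other way: it fell to 17.1, 17.4, 19.7 and 23.5 CPM after HI, against 95, 74.3 and 83.2 CPM in sham (-2.12 ± 0.13, adjusted p = 0.000177). The basal gelatinase Mmp2, at 57.7 to 97.5 CPM after HI and 98.7 to 101 CPM in sham, and Mmp14, at 293 to 408 CPM and 302 to 317 CPM, were not called.

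Genes of the plasminogen activator system, which links proteolysis to clot removal, were among those that rose. The urokinase receptor Plaur had 39.2 to 62.6 CPM after HI and 13.3 to 17.3 CPM in sham (1.75 ± 0.21), and urokinase, Plau, 55.4 to 74.4 CPM and 27.6 to 33 CPM (1.01 ± 0.12). Plat, the tissue-type activator, had 291 to 527 CPM after HI and 286 to 357 CPM in sham and was not called.

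Of 20 tested coagulation and fibrinolysis genes, Plaur and Plau included, 10 rose and 1 fell, with a median of 0.51. F3, tissue factor, the starter of the clotting cascade, had 47.5, 25.4, 45.1 and 45 CPM after HI, against 9.58, 15.2 and 13.5 CPM in sham (1.68 ± 0.25, adjusted p = 0.00635). Vwf, the platelet-binding factor of endothelial cells, had 2471 to 3222 CPM after HI and 1395 to 1784 CPM in sham (0.85 ± 0.14). Tfpi2, a Kunitz-type protease inhibitor, had 25.8, 26.4, 19.1 and 21.9 CPM after HI and 2.24, 1.92 and 2.39 CPM in sham (3.41 ± 0.16, adjusted p = 5.64e-05), and protein S, Pros1, rose by 0.51 ± 0.07.

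Of 24 tested wound and provisional matrix genes 14 rose and 1 fell, with a median of 0.69, and 10 of the 14 kept their call with any library left out. Spp1 (Gene ID 20750), osteopontin, had 1753, 2234, 1858 and 1881 CPM after HI, against 43.5, 36.9 and 28.4 CPM in sham (5.73 ± 0.19, adjusted p = 1.19e-05). Cd44, the receptor for osteopontin and hyaluronan, had 71.1 to 83.7 CPM after HI and 18.9 to 21.2 CPM in sham (1.89 ± 0.08, adjusted p = 3.83e-05). Has2, a hyaluronan synthase, had 2.81 to 3.86 CPM after HI and 0.225 to 0.344 CPM in sham (3.47 ± 0.28).

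Tgfbi, a collagen-binding protein induced by TGF-β, had 307, 292, 270 and 279 CPM after HI and 71.5, 74.4 and 64.7 CPM in sham (2.03 ± 0.07, adjusted p = 1.47e-05). Tenascin C, Tnc, had 162 to 212 CPM after HI and 35.9 to 57.6 CPM in sham (2.05 ± 0.18), and thrombospondin, Thbs1, 177 to 236 CPM and 44.4 to 61.2 CPM (1.97 ± 0.15). Prg4, the lubricating proteoglycan, had 84, 84.7, 85.9 and 105 CPM after HI, against 1.84, 3.44 and 5.34 CPM in sham (4.66 ± 0.30, adjusted p = 0.000191). Fibronectin, Fn1, at 6699 to 8609 CPM after HI and 6257 to 7153 CPM in sham, was not called. Of 15 tested basement membrane genes none rose and 2 fell (Lama2 and Nid2, neither call kept without sham 1 or sham 3), or 13.3% called against 17.1% of all tested genes, with a median of -0.01. Col4a1, a chain of basement membrane collagen, had 5700 to 8715 CPM after HI and 5771 to 7157 CPM in sham.

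Genes of the blood-brain barrier fell in 7 of 21 tested members and rose in none, with a median of -0.26. The count of falls was 4 without sham 3 and 9 without HI 1. Tfrc (Gene ID 22042), the transferrin receptor that carries iron across brain endothelium, fell to 802, 748, 525 and 516 CPM after HI, against 1916, 1602 and 1367 CPM in sham (-1.33 ± 0.19, adjusted p = 0.00574). Car4, a capillary carbonic anhydrase, fell to 89.6, 119, 74.3 and 81.8 CPM, against 297, 221 and 247 CPM in sham (-1.48 ± 0.17, adjusted p = 0.00231). The monocarboxylate carrier Slc16a1, through which lactate and ketone bodies enter the brain, had 2063 to 2447 CPM after HI and 3312 to 3744 CPM in sham (-0.62 ± 0.11), and the organic anion carrier Slc22a8 316 to 401 CPM and 480 to 564 CPM (-0.58 ± 0.10).

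Bsg, the chaperone that brings Slc16a1 to the membrane and a member of the endothelial list, had 2459 to 2905 CPM after HI and 4338 to 5087 CPM in sham (-0.75 ± 0.11, adjusted p = 0.00634). The junction gene Ocln had 134 to 153 CPM after HI and 175 to 193 CPM in sham (-0.35 ± 0.06), a call lost without sham 3 (adjusted p = 0.0557). Cldn5, the main claudin of the barrier, had 1414 to 1890 CPM after HI and 1666 to 1921 CPM in sham, and the glucose carrier Slc2a1 1150 to 1918 CPM and 1262 to 1360 CPM. Neither was called. The level of the endothelial list was 9.28 ± 0.15 after HI (SD, n = 4) and 9.35 ± 0.10 in sham (SD, n = 3).

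Called angiogenic and vessel-tone genes went both ways. Of 22 tested angiogenic genes 4 rose and 5 fell (40.9% called, against 17.1% of all tested genes), with a median of -0.06. Of the 9 only Nrp2, a co-receptor of vascular endothelial growth factors, kept its call with any library left out (177 to 223 CPM after HI and 129 to 153 CPM in sham, 0.49 ± 0.10). Without sham 3, 2 rose and none fell. Vegfa was not called and had 40.4 to 62.4 CPM after HI and 46.6 to 62.2 CPM in sham. Vegfc had 49.1, 46.4, 60.9 and 61.5 CPM after HI, against 80.1, 79.1 and 82.9 CPM in sham (-0.57 ± 0.11), a call lost without sham 3 (adjusted p = 0.0561).

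Of 24 tested vessel-tone genes 2 rose and 5 fell (29.2% called), with a median of -0.11. Over all tested genes 17.1% were called, 9.11% higher and 8.03% lower. Without sham 1 or sham 3, 0 vessel-tone genes rose and 3 fell, and without sham 2, 0 rose and 5 fell. Gucy1a1, a subunit of the nitric oxide receptor of mural cells, fell to 113, 90.5, 112 and 116 CPM after HI, against 218, 152 and 190 CPM in sham (-0.79 ± 0.13, adjusted p = 0.00903). The G protein-coupled receptors Olfr78 and Olfr558, known from vascular smooth muscle, fell by 0.93 and 1.63 on the log2 scale (SE 0.16 and 0.29). Olfr78 had 11.4 to 17.2 CPM after HI and 23.9 to 29.9 CPM in sham. Of 30 tested genes of signalling between pericytes and endothelium, 1 rose and 4 fell, with a median of -0.02. The share called was 16.7%, against 17.1% of all tested genes. Cdh2, the cadherin that joins both cells, kept its fall with any library left out (146 to 173 CPM after HI and 205 to 244 CPM in sham, -0.47 ± 0.09). Without HI 2, 5 genes of this list rose and 5 fell, and without sham 3, 0 rose and 1 fell.

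Of 20 tested pericyte identity genes none rose and 3 fell (Rgs5, Art3 and Ecm2), with a median of -0.20; over all tested genes 8.03% fell. The count of falls was 0 without sham 3, 1 without sham 1 and 5 without sham 2. Without sham 2 and HI 2 both, 9 fell and 1 rose. Rgs5, a regulator of G protein signalling and the marker most used for brain pericytes, had 3653, 2625, 3700 and 3600 CPM after HI, against 6138, 4530 and 5511 CPM in sham (-0.67 ± 0.17, adjusted p = 0.0338). Its groups did not overlap. Its call was lost when sham 1 (adjusted p = 0.112), sham 3 (0.0961), HI 1 (0.0605), HI 4 (0.0602) or HI 5 (0.0735) was left out. Vtn had 951 to 1487 CPM after HI and 1366 to 1616 CPM in sham, and Notch3 567 to 772 CPM and 715 to 932 CPM.

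Among 16 contractile genes 2 fell and none rose (12.5% called, against 17.1% of all tested genes), and both kept their call with any library left out. They were Casq2, a calcium store protein (6.13 to 8.31 CPM after HI and 18.6 to 29.5 CPM in sham, -1.75 ± 0.17, adjusted p = 0.00131), and Pln, which restrains the calcium pump (0.975 to 2.44 CPM and 4.62 to 5.89 CPM, -1.76 ± 0.31). Acta2, smooth muscle actin, had 835, 503, 1136 and 1180 CPM after HI and 1085, 944 and 1180 CPM in sham. Fibroblast markers were called in 1 of 16 (6.25%), Slc47a1 (log2 fold change 1.13). Its call was lost without sham 1, sham 2, HI 1, HI 4 or HI 5 at values of 0.98 to 1.13. Without HI 2, 6 of the fibroblast markers rose, and without HI 2 and sham 2 both, 4.

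**Figure D4:**
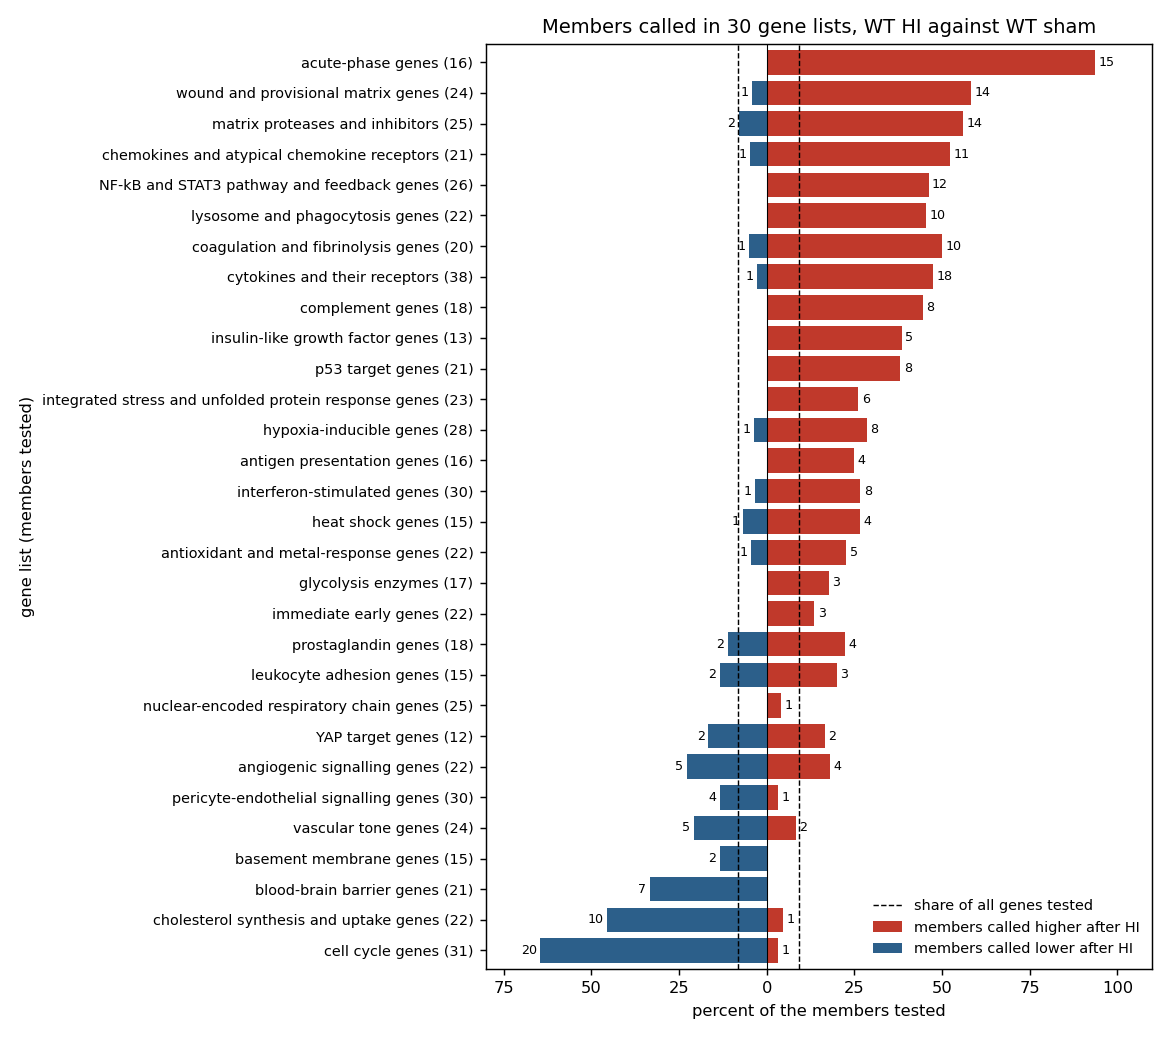
Share of the tested members of 30 gene lists called higher (red, to the right) or lower (blue, to the left) in WT HI against WT sham, with the number called beside each bar and the number tested in brackets. Dashed lines mark the shares over all tested genes, 9.11% higher and 8.03% lower; acute-phase genes reach 15 of 16 higher and cell cycle genes 20 of 31 lower.

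Hypoxia-inducible genes rose in 8 of 28 tested members and fell in 1, with a median of 0.32, and 3 of the 8 kept their call with any library left out, Egln3 and Slc16a3 among them. The count that rose was 3 without sham 1, 4 without sham 2 or HI 1 and 5 without sham 3 or HI 5. Egln3, an oxygen-dependent prolyl hydroxylase that is itself a target of hypoxia-inducible factor, had 31, 13.9, 24.5 and 25 CPM after HI, against 6.19, 9.35 and 9.56 CPM in sham (1.49 ± 0.28, adjusted p = 0.0136). Slc16a3, the lactate exporter, had 22.6, 42.5, 19.3 and 17.2 CPM after HI, highest in HI 2, and 7.8, 6.76 and 6.73 CPM in sham (1.84 ± 0.33). Glycolysis enzymes were called in 3 of 17, all higher (17.6%, against 17.1% of all tested genes called and 9.11% higher). Without sham 1, sham 2, HI 1 or HI 5, none was called higher. Pgk1 had 228 to 299 CPM after HI and 169 to 239 CPM in sham and was not called.

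Stress genes rose in part. Xbp1, the transcription factor of the unfolded protein response, had 252, 227, 237 and 250 CPM after HI, against 136, 126 and 125 CPM in sham (0.91 ± 0.06, adjusted p = 0.000226). Of its list of 23 tested stress-response genes 6 rose, with a median of 0.25, and Xbp1 alone of the 6 kept its call with any library left out; 1 rose without sham 3, 2 each without sham 1 or sham 2, 3 each without HI 4 or HI 5, and 9 without HI 1. The metallothioneins Mt1 and Mt2, which bind zinc and copper, had 53.7 to 104 CPM and 32 to 53.2 CPM after HI, against 15 to 32.6 CPM and 4.64 to 10.6 CPM in sham (1.82 ± 0.32 and 2.63 ± 0.32). Srxn1, which restores oxidised peroxiredoxins, had 25.6 to 33.2 CPM after HI and 12.5 to 14.2 CPM in sham (1.08 ± 0.12, adjusted p = 0.0018), while catalase, Cat, fell by 0.43 on the log2 scale (SE 0.07). Of 22 tested antioxidant and metal-response genes 5 rose and 1 fell, with a median of 0.35; 9 rose without sham 2 and HI 2 both, and DESeq2 called 13 higher. Heat shock genes rose in 4 of 15 and fell in 1, with a median of 0.19, among them the mitochondrial chaperonin Hspe1 (45.5 to 54.7 CPM after HI and 31.7 to 33.5 CPM in sham, 0.61 ± 0.07).

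Targets of p53, the factor that stops the cycle of damaged cells, rose in 8 of 21 tested members and fell in none, with a median of 0.42. Phlda3, an inhibitor of Akt signalling, had 41.5, 27.4, 43.1 and 46.3 CPM after HI, against 13.5, 15.9 and 17.4 CPM in sham (1.34 ± 0.19, adjusted p = 0.00507). The death receptors Fas and Tnfrsf10b rose by 0.80 ± 0.14 and 0.88 ± 0.14, and Bax, which opens mitochondria in apoptosis, by 0.45 ± 0.07. Cdkn1a, the cyclin kinase inhibitor, had 252, 230, 149 and 143 CPM after HI and 95, 76.2 and 89.3 CPM in sham (1.16 ± 0.22), a call lost without sham 2 (adjusted p = 0.0517).

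Cell cycle genes fell, many of them genes of mitosis. Of 31 tested members 20 fell and 1 rose, with a median of -0.80; 13 kept their fall with any library left out, and the count was 13 without sham 1 or sham 2 and 23 without HI 2. Cdc20 (Gene ID 107995), the activator of the anaphase-promoting complex, fell to 30.5, 31.9, 31.6 and 28.9 CPM after HI, against 67.6, 71.1 and 67.7 CPM in sham (-1.16 ± 0.06, adjusted p = 6.63e-05). Values within each group differed by little, and the groups lay far apart. Cyclin genes Ccnb2 and Ccna2 had 14 to 20.5 CPM and 32.8 to 56.2 CPM after HI, against 41.1 to 48.9 CPM and 90.8 to 98.2 CPM in sham (adjusted p = 0.00122 and 0.00771). The kinetochore gene Cenpf had 12.9, 22.5, 25.3 and 20.8 CPM after HI and 54.7, 56.2 and 49.6 CPM in sham (-1.39 ± 0.20). Top2a, which untangles sister chromatids, had 94.2 to 137 CPM after HI and 190 to 221 CPM in sham (-0.80 ± 0.13). The replication genes Mcm6 and Pcna were not called: Mcm6 had 108 to 129 CPM after HI and 118 to 134 CPM in sham, and Pcna 117 to 155 CPM and 140 to 159 CPM.

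**Figure D5:**
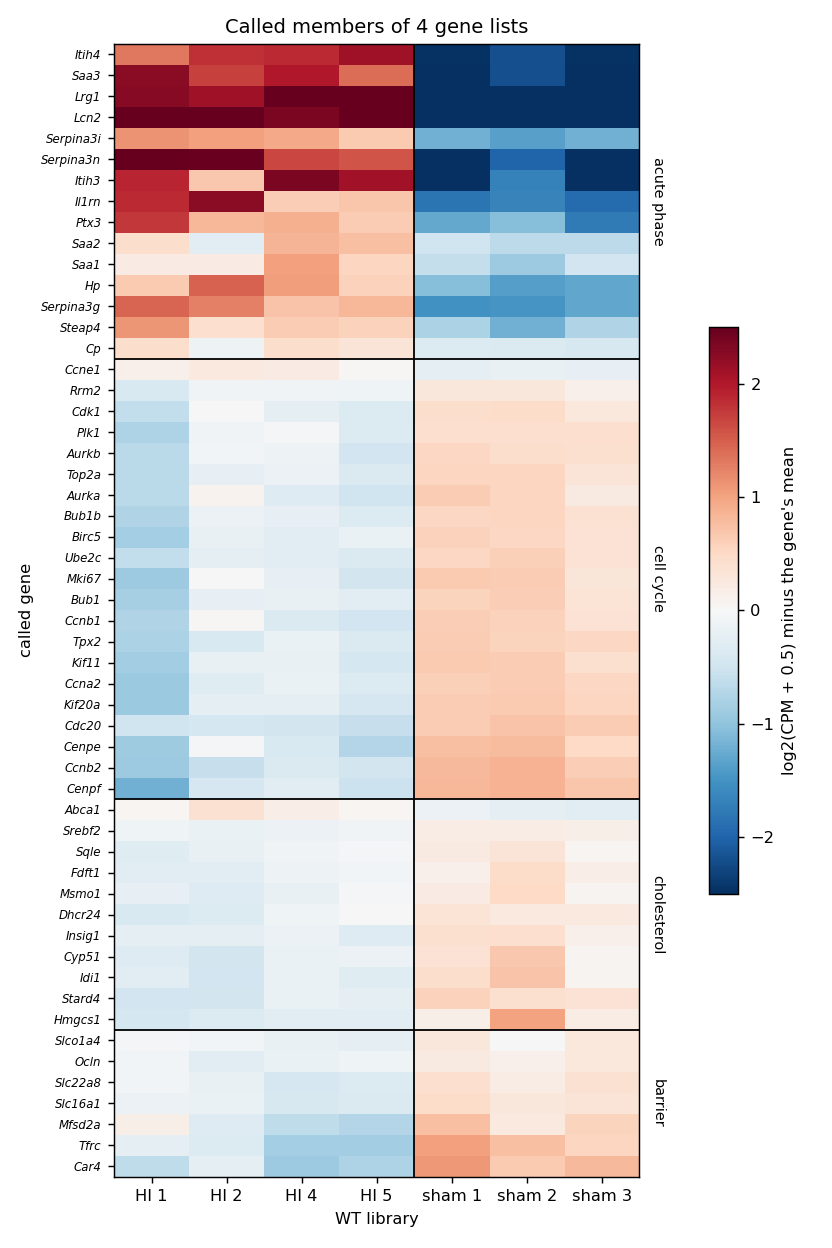
Log2(CPM + 0.5) minus the gene's mean over the 7 libraries for the 54 called members of 4 gene lists, 1 row a gene and 1 column a library, WT HI left of WT sham. Acute-phase genes are high in all HI libraries, while cell cycle, cholesterol and barrier genes are mostly low in them, and the colour scale ends at 2.5 in both directions.

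Cholesterol synthesis and uptake genes fell in 10 of 22 tested members and 1 rose, with a median of -0.34. The count of falls was 5 without sham 2 or HI 1 and 6 without sham 1, and 4 genes kept their call with any library left out. Those were Stard4, a cholesterol carrier between membranes (70.6, 71.5, 87 and 82.2 CPM after HI, against 146, 130 and 126 CPM in sham, -0.78 ± 0.09, adjusted p = 0.00262), the enzyme Idi1 (26.7 to 33.3 CPM and 39.1 to 61.7 CPM, -0.75 ± 0.15), the sterol sensor Insig1 (-0.56 ± 0.09) and Srebf2, the transcription factor of the pathway (125 to 132 CPM and 155 to 160 CPM, -0.30 ± 0.04, adjusted p = 0.00592). Several of the others had their highest value in sham 2, and a link to the high oligodendrocyte level of that library was not tested. Hmgcs1 had 76.5, 82.5, 86.1 and 85.3 CPM after HI and 115, 209 and 119 CPM in sham. Its call was kept without sham 2 and lost without HI 1 (adjusted p = 0.0728), HI 4 (0.0604) or HI 5 (0.0639). Without sham 2 and HI 2 both, 7 genes of the list fell.

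Of 13 tested genes of the insulin-like growth factor system 5 rose and none fell, with a median of 0.28, and all 5 encode binding proteins. Igfbp3 had 1443, 741, 793 and 773 CPM after HI, highest in HI 1, against 229, 220 and 220 CPM in sham (2.07 ± 0.25, adjusted p = 0.00303). Igfbp6 had 27.8 to 58.4 CPM after HI and 11.5 to 18.2 CPM in sham (1.70 ± 0.28), Igfbp5 283 to 414 CPM and 144 to 203 CPM (0.98 ± 0.16), and Igfbp7 895 to 1400 CPM and 515 to 663 CPM (0.97 ± 0.16). The growth factor Igf2 had 2126 to 3183 CPM after HI and 3209 to 3466 CPM in sham and was not called. Among 12 tested YAP targets 2 rose and 2 fell, with a median of 0.09, and Ccn2, a matricellular growth factor, had 252, 134, 231 and 219 CPM after HI, against 74.3, 71.8 and 75.9 CPM in sham (1.50 ± 0.20, adjusted p = 0.00423).

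Complement genes rose in 8 of 18 tested members and fell in none, with a median of 0.72. The classical protease gene C1ra had 41.5, 30.5, 53.7 and 52.3 CPM after HI, against 11, 13.7 and 14.2 CPM in sham (1.77 ± 0.21, adjusted p = 0.00285). C3, the central component, had 23.6 to 32.3 CPM after HI and 11.8 to 14.5 CPM in sham (1.06 ± 0.13), C4b 93.4 to 129 CPM and 37.6 to 61.5 CPM (1.25 ± 0.19), and Cfb of the alternative pathway 19.7 to 26.6 CPM and 8.45 to 10.2 CPM (1.29 ± 0.13). C1qa, made by microglia, had 209, 460, 208 and 199 CPM after HI and 251, 247 and 166 CPM in sham and was not called. It was highest in HI 2.

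Interferon-stimulated genes rose in 8 of 30 tested members and fell in 1, with a median of 0.26. The count that rose was 5 without sham 1, sham 3, HI 4 or HI 5. Ifitm1 and Ifitm3 belong to a family that restricts virus entry. Ifitm1 had 177, 109, 166 and 159 CPM after HI, against 27.1, 28.3 and 32.6 CPM in sham (2.38 ± 0.18, adjusted p = 0.000374), and Ifitm3 had 292 to 434 CPM and 198 to 227 CPM (0.86 ± 0.14). Zbp1, a sensor of nucleic acids, had 3.5 to 4.86 CPM after HI and 0.803 to 1.01 CPM in sham (2.20 ± 0.22). Bst2, which tethers budding virus, had 55.1 to 63.2 CPM after HI and 51.6 to 55.7 CPM in sham and was not called. Antigen presentation genes rose in 4 of 16, 0 without sham 2, 1 without sham 3 and 2 without HI 5.

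Genes of lysosomes and phagocytes rose in part. The level of the microglia list was 6.31 to 6.45 in HI libraries 1, 4 and 5, 7.71 in HI 2 and 7.02 to 7.48 in sham, so its groups overlapped. Of 22 tested lysosome and phagocytosis genes 10 rose, none fell and 12 were not called, with a median of 0.91. The share called was 45.5%, against 17.1% of all tested genes called and 9.11% higher. Without sham 3 the count that rose was 6. Msr1, a scavenger receptor, had 81.3, 126, 88 and 71.7 CPM after HI, against 5.68, 5.86 and 3.22 CPM in sham (4.22 ± 0.28, adjusted p = 0.000226). Lgals3, galectin 3, had 54.2, 102, 37.9 and 42.9 CPM after HI and 5.56, 4.96 and 6.56 CPM in sham (3.38 ± 0.39), and the lipase Lpl 285, 648, 321 and 262 CPM and 68.6, 57.8 and 52.4 CPM (2.67 ± 0.35). All 3 were highest in HI 2. Cd63 of lysosomal membranes, less uneven, had 277 to 346 CPM after HI and 170 to 190 CPM in sham (0.77 ± 0.09, adjusted p = 0.00223).

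Among 16 microglia markers 3 fell (P2ry12, Siglech and Tmem119) and none rose, with a median of -0.44. The share called was 18.8%, against 17.1% of all tested genes called and 8.03% lower. Of the microglia markers 11 fell without HI 2, and none fell without sham 1, sham 2, HI 1, HI 4 or HI 5. P2ry12, the nucleotide receptor of resting microglia, had 30.2, 107, 35.5 and 27.3 CPM after HI, against 241, 270 and 173 CPM in sham (-2.19 ± 0.48, adjusted p = 0.0217); its adjusted p was 0.0512 to 0.0636 when sham 1, sham 2, HI 1, HI 4 or HI 5 was left out. Cx3cr1 had 200, 634, 214 and 182 CPM after HI and 430, 456 and 339 CPM in sham, so that HI 2 exceeded every sham library and the other HI libraries lay below them all. For infiltrating blood cells, the level of the neutrophil and monocyte list was 1.27 to 2.18 after HI and 0.99 to 1.58 in sham, with Ly6g, Camp and Elane under 1 CPM in all 7 libraries. Its median log2 fold change was 0.55, with a range of -1.43 to 2.58. Of its 11 tested members 1 was called higher and 10 were not called. That share was 9.09%, against 9.11% of all tested genes called higher. The called member was Ccr2, the receptor for Ccl2 on inflammatory monocytes. Ccr2 had 3.67, 8.49, 2.09 and 2.73 CPM after HI, against 1.03, 0.789 and 0.834 CPM in sham (2.25 ± 0.53, adjusted p = 0.0277), a call lost without sham 1, sham 2, sham 3 or HI 1. DESeq2 called 3 members of the list. Of the 12 lymphocyte markers 7 did not pass the filter on low counts, the T cell receptor complex genes Cd3e, Cd3d and Cd3g included, and none of the 5 tested was called.

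The largest decreases by fold were mostly of neuronal and oligodendrocyte genes, with their highest values in sham 2. The 15 largest included Ddn, Kif5a, Gpr17, Bcas1, Camk2a, Mbp, Kif5c, Eef1a2, Psd, Gpr165, Olig1, Nrgn and Ppfia3, with log2 fold changes of -3.90 to -2.47. All 15 had their highest value in sham 2 and their highest HI value in HI 2. Mbp, a protein of myelin, had 8.26, 32.4, 6.73 and 11.6 CPM after HI, against 33.1, 275 and 74.9 CPM in sham. Its groups were separated by less than 1 CPM, and its call was lost without sham 2 (log2 fold change -1.87, adjusted p = 0.114), sham 3 (adjusted p = 0.0631), HI 1 (0.0896), HI 4 (0.0852) or HI 5 (0.0918). The neuronal motor gene Kif5a had 4.36, 16.3, 2.49 and 3.75 CPM after HI and 19.8, 191 and 46.5 CPM in sham. Of the 15, 3 were called without sham 2, 5 without sham 3 and 2 each without HI 1, HI 4 or HI 5. All 15 were called without HI 2, and all 15 with sham 2 and HI 2 both left out. Of the oligodendrocyte list 7 of 10 tested members fell, 0 without sham 2, sham 3, HI 1, HI 4 or HI 5, and 9 without HI 2.

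The 10 decreases with the smallest p-values, a choice that favours genes even across libraries, held with any library left out. They were Cdc20, Nkd1, Aspn, Adamts16, Stmn1, Slc40a1, Lbh, Dennd11, Susd4 and Nampt. With all 15 libraries fitted, 5 of the 10 were called (Adamts16, Cdc20, Lbh, Nampt and Nkd1). Nkd1 (Gene ID 93960), an inhibitor and target of Wnt signalling, fell to 146, 152, 141 and 140 CPM after HI, against 336, 326 and 300 CPM in sham (-1.15 ± 0.06, adjusted p = 7.25e-05). Aspn, a small leucine-rich matrix protein, fell to 23.9, 24, 23.8 and 24.2 CPM, against 54.6, 47.1 and 53.5 CPM in sham (-1.11 ± 0.07, adjusted p = 0.000169). Slc40a1, ferroportin, the only known cellular iron exporter, fell to 246, 274, 264 and 256 CPM after HI, against 568, 528 and 492 CPM in sham (-1.03 ± 0.07, adjusted p = 0.000226). Nampt, which makes the precursor of NAD, fell to 349, 337, 309 and 295 CPM, against 799, 726 and 658 CPM in sham (-1.17 ± 0.09, adjusted p = 0.000434). Stmn1, a destabiliser of microtubules, and Lbh, a transcription cofactor, fell by 0.95 and 0.86 on the log2 scale (SE 0.06 for each).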

How the data were processed

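RNA-seq values of PDGFRβ-positive brain cells were taken from the authors' deposited table of expected counts per gene, an RSEM-type estimate to judge from its 3.28 to 3.77% of non-whole values per library. HISAT2 2.1.0, Bowtie2 2.4.4, Bowtie, RSEM 1.3.1, DESeq2 1.4.5 and build mm39 are named in the submitters' processing notes, with no role or order. Libraries were prepared by a commercial service, per the labels' protocols; strandedness is not given in the sources used here, so reads of overlapping and antisense genes cannot be told apart. The table has 65535 lines below its header, the row limit of a common spreadsheet format, so it may have been cut. Of these, 17892 held values and 47643 were blank, and 17862 of the former were matched to a symbol by Gene ID.

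Expected counts were rounded, filtered (filterByExpr, 14253 genes kept and 3639 left out), scaled by TMM and tested with edgeR 4.0.16 (quasi-likelihood, R 4.3.3) on the 4 WT HI and 3 WT sham libraries, with Benjamini-Hochberg adjustment over all genes tested. CPM uses the TMM-scaled library size. Fold changes are HI over sham, with SE derived from the test. The biological coefficient of variation was 17.4%. Replicate pairs differed beyond sampling noise. The fit was tested on simulated data. DESeq2 1.42.0 and limma 3.58.1 were alternatives.

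Genes were named by a fixed rule: the 15 largest changes per direction with at least a 2-fold change, groups that do not overlap and a group mean reaching 10 CPM; the 10 smallest p-values per direction; up to 8 called and 4 uncalled members per list; and cell type markers under 1 CPM. Some genes that the rule names are not reported here. The members and lists were chosen with earlier results of these data known. No Benjamini-Hochberg adjustment was made over a list.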

Additional observations from a re-analysis of the deposited data

Results flagged for a closer look

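Among the 4 HI libraries, 224 values (levels of genes named in the text and of lists) were examined for 1 library far from the other 3, by Dixon's ratio of the gap to its neighbour over the range. Of these, 28 stood out, 19 with HI 2, 8 with HI 1 and 1 with HI 4 or 5. Chance gives about 1 in 20 for independent, normally spread values. The values here are not independent, since lists hold many of the named genes, so the count is a description and not a test.

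HI 2 was the high library for microglial and phagocyte values. Its level was 7.71 for microglia markers (6.31 to 6.45 in the others) and 8.67 for lysosome and phagocytosis genes (7.85 to 7.97). Its CPM was 634 for Cx3cr1, 460 for C1qa, 107 for P2ry12, 41.6 for Siglech, 81.4 for Tmem119, 648 for Lpl, 76.2 for Ccl6 and 4.24 for Gpr165. It was also high for the neuronal genes Kif5a (16.3 CPM) and Camk2a (10.1 CPM) and for the stress-response list (level 6.61, against 6.29 to 6.34).

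HI 2 was the low library for mural and vessel values. Its level was 9.71 for basement membrane genes (10.1 in the others) and 5.46 for vascular tone genes (5.74 to 5.75). Its CPM was 2625 for Rgs5, 90.5 for Gucy1a1, 25.4 for F3 and 155 for Il1r1.

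HI 1 stood apart on 8 genes. It was high for Ccl11 (140 CPM), Igfbp3 (1443 CPM), Adamts4 (179 CPM), Cebpd (102 CPM), Cldn5 (1890 CPM), Fosl2 (217 CPM) and Fas (9.01 CPM), and low for Pla2g4a (37.9 CPM). HI 5 was high for Prg4 (105 CPM).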

How the results depend on the processing

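The count of called genes stayed within 1.5 times of 2443 (2241 to 3219) with other size factors, DESeq2, limma-voom, robust, legacy or bias-adjusted fits, no filter and a stricter filter, and was 2253 without sham 2 and HI 2 (the bias-adjusted fit and this last setting were added after seeing the data). With 1 library left out it ranged between 1150 and 3000, with 651 to 1574 higher and 499 to 1426 lower. Fitting all 15 libraries gave 271 genes (205 higher and 66 lower, 75.6% higher against 53.1%), and asking for a 2-fold change gave 644 (431 higher and 213 lower). The causes were not tested. Without sham 2 and HI 2, list counts that moved by over 1.5 times and are not given above were microglia markers (9 lower), vessel-tone genes (8 lower), angiogenic genes (2 higher), YAP targets (4 higher), astrocyte markers (3 higher), contractile genes (2 higher), glycolysis enzymes (1 higher) and immediate early genes (1 higher). Also moved were cytokines and receptors (2 lower), basement membrane genes (1 higher), pericyte-endothelial signalling genes (2 higher), cell cycle genes (0 higher) and coagulation and fibrinolysis genes (0 lower). DESeq2 gave 6 lower endothelial markers, 6 lower neuron markers, 5 lower microglia markers, 4 lower adhesion genes, 4 higher pericyte-endothelial signalling genes, 7 higher heat shock genes, 6 higher glycolysis enzymes and 5 higher immediate early genes. The replicate block could use only libraries 1 and 2 of each group and called 0 genes, 0 higher and 0 lower, by edgeR, with 3000 at an unadjusted p under 0.05; main and DESeq2 fits of all 7 libraries called 2443 and 3219. Only 2 pairs share a number, too few to take the numbers as pairing; their deviations correlated at 0.315 and 0.199, and those of pairs with different numbers at -0.357 to 0.493. Of the 15 largest decreases, 1 was called by limma-voom and 1 in the 15-library fit.

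Some uncalled genes changed sign. With 1 library left out, log2 fold changes ranged between -0.11 (without HI 2) and 0.41 for C1qa, -0.03 (without sham 2) and 0.21 for Pdgfrb, -0.05 and 0.27 for Plat and -0.07 and 0.18 for Slc2a1 (both lowest without HI 1), and -1.29 and 0.74 (without sham 3) for Ttr. Without sham 2 and HI 2 they were -0.03 for C1qa and -1.54 for Ttr. Depth was even across libraries, so genes under about 1 CPM rest on few counts and 3639 were not tested. The 3 sham libraries limit the spread estimate, and bulk RNA does not separate cell types.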

Other observations

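Nuclear-encoded respiratory chain genes, not described above, had 1 called member of 25 (4.0%, against 17.1% of all tested genes). It was Cox5a, a subunit of cytochrome oxidase, with 86.4 to 95.5 CPM after HI and 74.3 to 76.9 CPM in sham, a call lost without each sham library. Immediate early genes, switched on within minutes of a stimulus, were called higher in 3 of 22 tested members (Fosl1, Fosl2 and Ier3; 13.6%, against 9.11% of all tested genes) and lower in none, with none called without sham 2. Their level was 7.15 to 7.93 after HI and 7.13 to 7.38 in sham. Inhbb, a subunit of activin, was among the 10 increases with the smallest p and had 59.9, 45.3, 38.5 and 42.6 CPM after HI, against 3.61, 3.66 and 3.61 CPM in sham (log2 fold change 3.68 ± 0.18, adjusted p = 5.64e-05, edgeR's quasi-likelihood test). The choroid plexus gene Ttr had 22.3, 8116, 390 and 5944 CPM after HI and 1099, 3260 and 10982 CPM in sham, with no order by group.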
